A study of Homo sapiens with 50 samples.

Results

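The nuclear genes that encode subunits of respiratory complex I were followed through differentiation of H1 cells, a human embryonic stem cell line. Members were the rows whose symbol is NDUF followed by A, B, C, S or V and then digits only. This leaves out assembly factors and pseudogenes. It also leaves out NDUFAB1, and it keeps NDUFA4, which is now counted with complex IV, in every count and sum of the members. The rule took 39 of 57905 rows, for 37 symbols on 18 chromosomes. NDUFA7 and NDUFB8 have 2 gene IDs each, and 1 ID of each (ENSG00000167774 and ENSG00000255339) stayed near 0. The other 37 rows, 1 for each symbol, passed the filter of at least 1 FPKM in at least 2 libraries in both deposited tables, and every count below is over these 37. FPKM is the number of fragments scaled by exon length and library size. The annotated exon length ran from 531 bases for NDUFB7 to 12268 for NDUFS1. Levels compared between genes, and sums over genes, depend on it.

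The study holds 50 libraries in 25 groups of 2, all from wild-type H1 cells. One group is undifferentiated cells at day 0, and the other groups are cells at days 3, 5, 7 and 11 of differentiation towards mesendoderm and heart. At each of these days there are 6 conditions. Besides the differentiation control they are NaHCO3 or HCl alone, IWP2 alone, IWP2+NaHCO3, and IWP2+NaHCO3+2-DG. HCl and NaHCO3 are an acid and a base, IWP2 is an inhibitor of WNT secretion, and 2-DG is an inhibitor of glycolysis. Doses and the days on which each agent was present are not given in the sources used here. No label says that the 2 libraries of a group came from separate cultures, so the p-values rest on library-to-library spread, which may be technical.

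Complex I is the first and largest enzyme of the mitochondrial respiratory chain. It takes electrons from NADH in the matrix arm, passes them along iron-sulphur clusters to ubiquinone, and pumps protons through the membrane arm. Its core is encoded in part by nuclear genes (some of the NDUFS and NDUFV genes, in the matrix arm) and in part by mitochondrial DNA (the MT-ND genes of the membrane arm), and accessory subunits of nuclear origin surround the core. Heart muscle is rich in mitochondria and relies on oxidative phosphorylation, while pluripotent stem cells rely largely on glycolysis.

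Library totals were 14794134 to 22796553 counts at days 3 and 5 and 14090004 to 20445875 at days 0, 7 and 11. The tables of these 2 sets of days were deposited separately, so tests were run within a table only. Summed pluripotency markers (8 genes such as POU5F1 and NANOG) were 2193 and 2182 FPKM in undifferentiated cells and at most 57.7 FPKM in every library of day 11. Summed heart muscle markers (12 genes such as TNNT2 and MYH6) were 9.68 and 9.54 FPKM in undifferentiated cells. The libraries of a pair stood far apart over the members in 2 groups, with a median absolute log2 ratio of 0.91 for IWP2 with NaHCO3 and 2-DG at day 3 and 0.54 for NaHCO3 at day 7, against at most 0.24 in the other groups. Over all genes HCl at day 3 also stood apart, with a chi-square per gene of 19.9, near the 21.9 of NaHCO3 at day 7, and a ratio of 0.09 over the members.

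Levels of the members spanned a wide range. In control cells of day 7 the lowest mean was that of NDUFA7, at 2.28 ± 0.198 FPKM (SD, n = 2), and the highest that of NDUFS5, a subunit on the intermembrane side, at 211 ± 9.44 FPKM (SD, n = 2). The core gene NDUFS7, which holds the last cluster before ubiquinone, was at 3.14 and 2.76 FPKM, and the core gene NDUFV1, which binds NADH, at 19.99 and 21.10 FPKM. NDUFS5 has 6 named pseudogenes in the tables and NDUFA5 has 12, so reads of these genes could have been split or lost in counting. The kept row of NDUFA7 (GRCh37 chr19:8373490-8386280) overlaps its second ID (chr19:8373167-8386263) on the same strand over most of its span. The kept row of NDUFB8 likewise overlaps its second ID. Reads of both genes could thus have been lost in counting, a limit on every value of NDUFA7 given below. Of the 37 kept rows, 18 overlap another gene on the same strand and 21 overlap one on the other strand. Whether counting used strand is not given in the sources used here, so reads of such a gene and of its partner cannot be told apart.

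The summed level of all members differed between some of the conditions at days 7 and 11 and overlapped between others. At day 7 it was 966 and 986 FPKM in the control libraries, 1793 and 1740 with IWP2, 985 and 1034 with IWP2 and NaHCO3, and 1751 and 1778 once 2-DG was added to these. With HCl it was 1085 and 1164 FPKM and with NaHCO3 498 and 802 FPKM at that day. At day 11 it was 943 and 1034 FPKM in the control libraries, 1809 and 1722 with HCl, 1638 and 1561 with IWP2, and 1876 and 1795 with IWP2, NaHCO3 and 2-DG. The libraries of day 11 with NaHCO3, at 1273 and 1238 FPKM, and with IWP2 and NaHCO3, at 1176 and 1227 FPKM, lay between these and the controls. Undifferentiated cells held 1449 and 1534 FPKM.

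**Figure D1:**
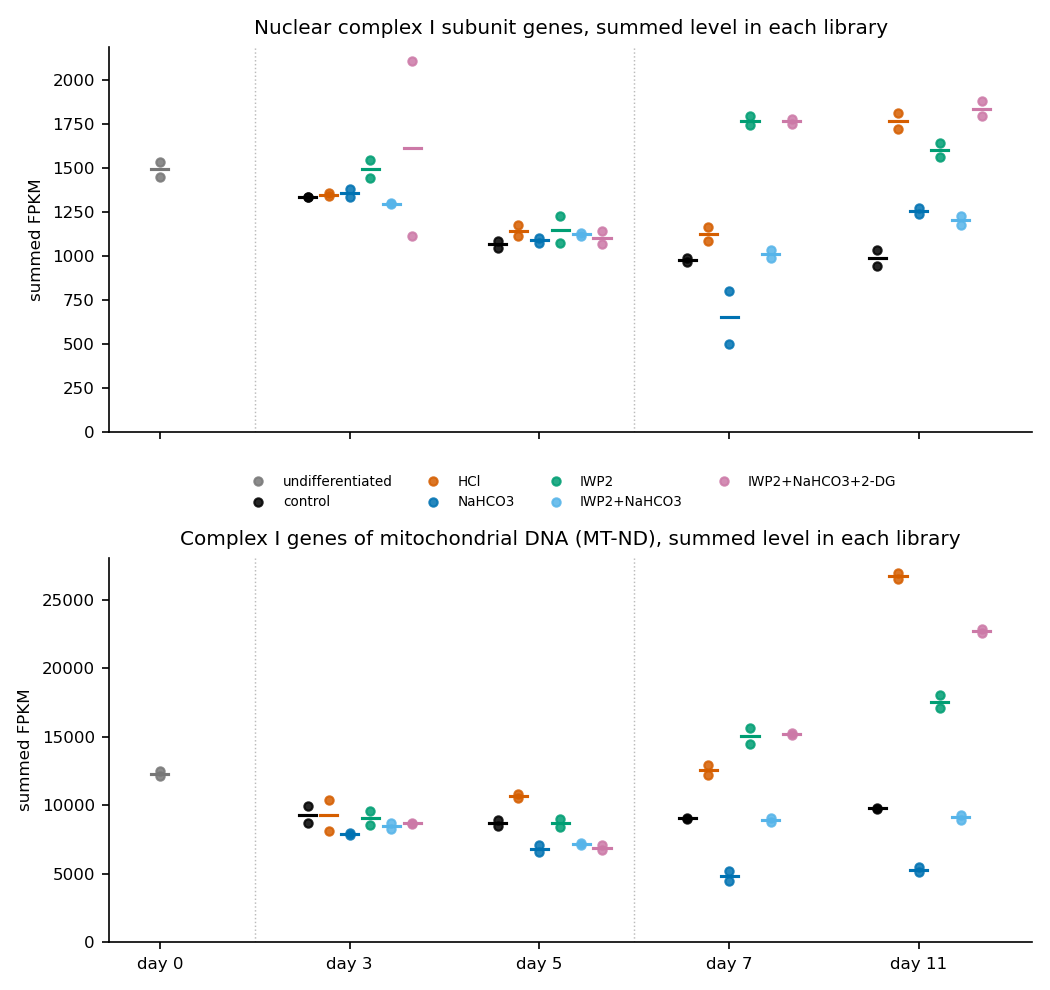
Summed FPKM of the nuclear complex I subunit genes (upper panel) and of the mitochondrially encoded MT-ND genes (lower panel) in each library, by day and treatment. Points are libraries, short bars are means of 2 libraries, and dotted lines separate sets of days that were deposited in different tables. With HCl at day 11 the nuclear sum reaches 1809 and 1722 FPKM, against 943 and 1034 in the control libraries.

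Between undifferentiated cells and control cells of day 7 the members fell. The count was 27 lower and 0 higher, where 34.4% of all genes tested were called lower, with a median log2 fold change of -0.51. All 7 core genes fell, from -0.40 for NDUFV1 to -0.86 for NDUFV2. NDUFS5 fell most, from 442 and 479 to 205 and 218 FPKM (-1.29 ± 0.18, adjusted p = 1.1e-05). NDUFS6, a zinc-binding subunit of the matrix arm, went from 62.9 and 58.4 to 31.7 and 28.6 FPKM (-1.18 ± 0.10, adjusted p = 1.8e-12), and NDUFB9, of the distal membrane arm, from 45.8 and 47.3 to 24.3 and 25.5 FPKM (-1.07 ± 0.09, adjusted p = 1.5e-12). In these 3 genes both libraries of day 7 lay below both of day 0. The sum of 6 cycling genes was 482 and 510 FPKM at day 0 and 184 and 186 FPKM in control at day 7, and its part in the fall of the members was not tested.

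In control cells the members changed little from day 7 to day 11. Of the members 7 were higher and 0 lower, where 19.7% of all genes tested were called higher, and the median log2 fold change was 0.12. NDUFB5 (0.36 ± 0.10, adjusted p = 0.0068) and NDUFC1 (0.32 ± 0.10, adjusted p = 0.013) rose most. Without control replicate 2 of day 11 the count was 1, and without control replicate 1 of day 7 it was 3.

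With IWP2, nearly all members were higher than in control at day 7. The count was 36 of 37 members higher and none lower, by edgeR's quasi-likelihood test with Benjamini-Hochberg adjustment over all genes (adjusted p under 0.05). Of all genes tested, 23.3% were called higher in this comparison. The median log2 fold change of the members was 0.86, a 1.82-fold rise, against -0.01 over all genes tested. All 7 core genes of the matrix arm rose, as did 8 of 9 matrix arm accessory genes, 9 of 9 proximal and 11 of 11 distal membrane arm accessory genes. At least 2-fold rises were called for 14 members, where 8.50% of all genes tested were called higher by that rule.

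NDUFA8, an accessory subunit of the proximal membrane arm (GRCh37 chr9:124894745-124922098, minus strand), was at 22.6 and 21.4 FPKM in the control libraries of day 7 and at 68.9 and 70.6 FPKM with IWP2. Its log2 fold change was 1.76 ± 0.11 (SE, adjusted p = 3.1e-13). NDUFB5, of the distal membrane arm, went from 12.8 and 13.5 to 38.2 and 36.4 FPKM (1.60 ± 0.10, adjusted p = 6.4e-13). NDUFC1, a small membrane arm subunit, went from 11.8 and 11.6 to 32.3 and 33.0 FPKM (1.57 ± 0.10, adjusted p = 7.4e-15). In all of these the libraries with IWP2 lay above both control libraries.

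Among the core genes, NDUFS7 rose most at day 7, from 3.14 and 2.76 to 7.03 and 6.53 FPKM (1.30 ± 0.11, adjusted p = 8.9e-12). NDUFS1, which carries several iron-sulphur clusters, went from 8.25 and 8.55 to 18.2 and 16.5 FPKM (1.14 ± 0.07, adjusted p = 3.8e-15). Further log2 fold changes of core genes were 1.01 for NDUFV1, 0.87 for NDUFS3, 0.75 for NDUFS8 and 0.74 for NDUFV2. NDUFA4, long listed with complex I and now counted with complex IV, went from 42.1 and 43.2 to 95.7 and 88.5 FPKM (1.21 ± 0.21, adjusted p = 0.00026). The member that was not called is NDUFA7, at 2.42 and 2.14 FPKM in control and 2.04 and 1.89 FPKM with IWP2.

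RefSeq promoter windows (GRCh38.p14, 250 bases before to 50 after a start) matched 32 of 37 members, with 39 windows. They were searched on both strands for short motifs of factors known to act at genes of the respiratory chain, and a window was counted once however many matches it held. CATGCGC, part of the NRF1 motif, was in 8 of 39 member windows (20.5%), against 4.43% of all 35116 windows. AAGATGGC, of YY1, was in 17.9% against 2.89%, AAGGTCA, of the ERR receptors, in 12.8% against 3.92%, and CCGGAAG, of ETS factors such as GABPA, in 12.8% against 10.3%. These letters describe the windows and show no binding. The 30-base stretches below were picked among members with a match, so they do not stand for the members of largest change. NDUFC1, among the largest rises, had no match in any of its windows, and NDUFB5 had no window. The stretches run 5′ to 3′ on the strand of the gene, with the matches in capitals. In NDUFA8, with the largest rise with IWP2, 2 overlapping matches begin 4 and 1 bases before the start.
NDUFA8, NRF1, chr9:122159764-122159793, minus strand: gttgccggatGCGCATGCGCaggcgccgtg
NDUFS6, NRF1, chr5:1801350-1801379, plus strand: ccagaagccgtGCGCATGcgttagcgctaa
NDUFA6, NRF1, chr22:42090919-42090948, minus strand: ctgtagatgagCATGCGCagcacccaccgt
NDUFS7, NRF1, chr19:1383824-1383853, plus strand: tccggtttccgCATGCGCtccgagccgctt
NDUFA1, ETS, chrX:119871774-119871803, plus strand: ttccgtcgcttCTTCCGGagccgtacgtgg
NDUFS3, ETS, chr11:47578961-47578990, plus strand: cggaacctccgCTTCCGGctccacgtccgc
NDUFB4, ERR, chr3:120596286-120596315, plus strand: tcctgaagctgAAGGTCAgcatagacaaag
NDUFS4, YY1, chr5:53560649-53560678, plus strand: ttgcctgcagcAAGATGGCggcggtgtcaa

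Summed heart muscle markers were 492 and 559 FPKM in the control libraries of day 7 and 7244 and 6635 FPKM with IWP2. No marker was at a count of 0 in the IWP2 libraries. The liver and foregut sum (12 genes such as ALB and APOA1) was 1757 and 1786 FPKM in control and 169 and 436 FPKM with IWP2. The fibroblast and matrix sum (8 genes such as COL3A1) was 2564 and 2446 FPKM in control and 365 and 545 FPKM with IWP2. The part of these markers in the results on the members was not tested. In bulk samples, fewer cells of a type and less RNA per cell cannot be told apart.

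**Figure D2:**
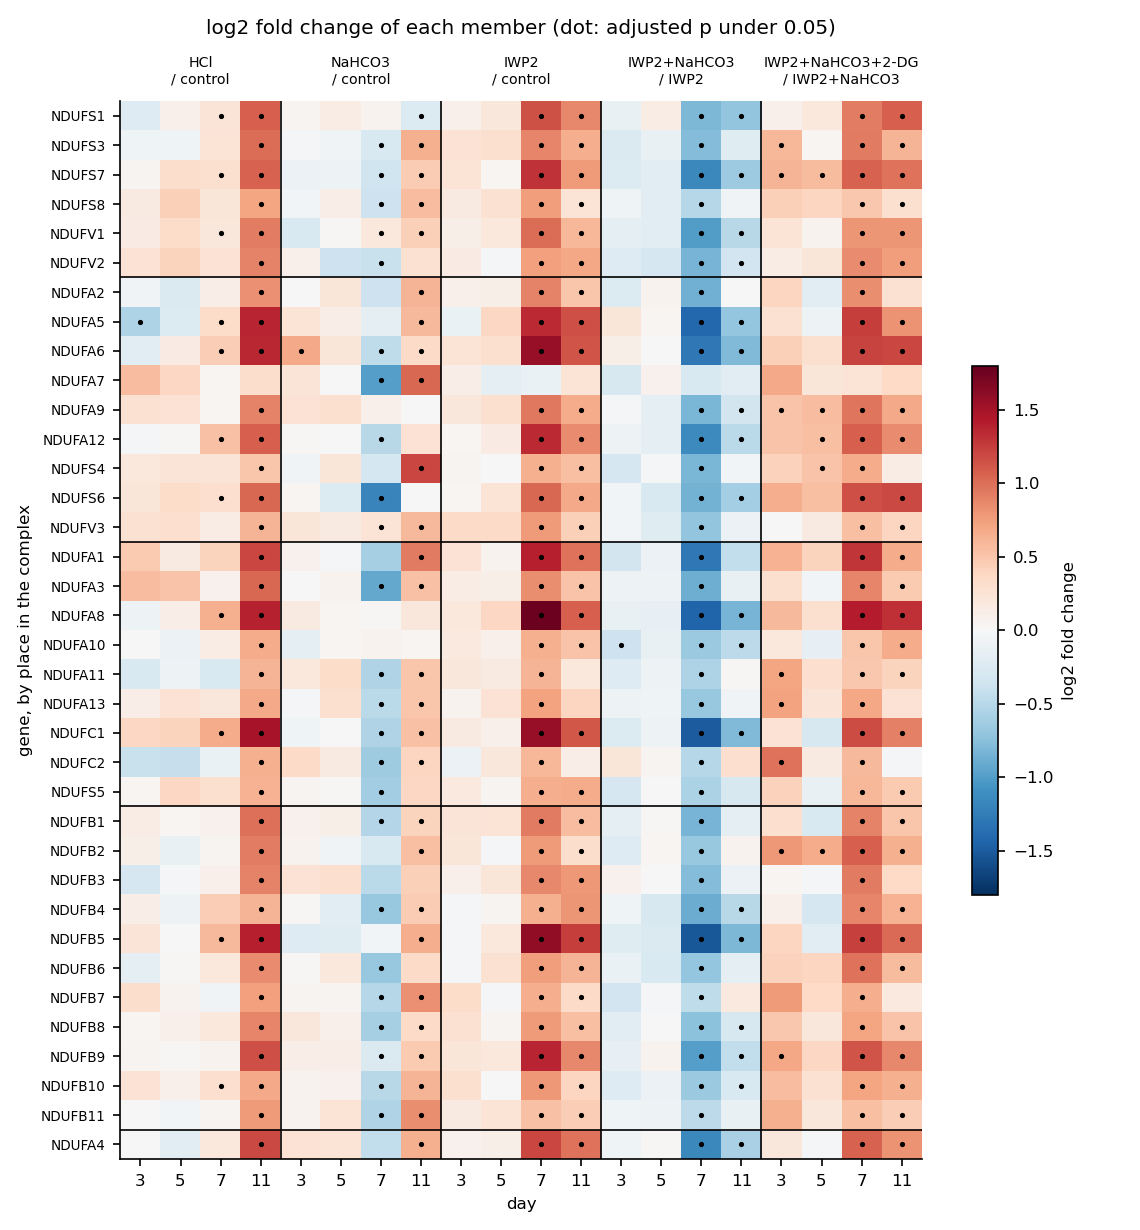
log2 fold change of 36 members (rows, by place in the complex) in the 20 within-day comparisons (columns, by day), with red for higher, blue for lower and a dot where the adjusted p was under 0.05. With IWP2 at day 7, 35 of these 36 members carry a dot, and NDUFA7 does not.

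At day 11, 33 members were higher with IWP2 than in control and 0 lower, where 22.1% of all genes tested were called higher, with a median log2 fold change of 0.65. NDUFB5 rose most, from 15.1 and 17.1 to 37.5 and 37.7 FPKM (1.25 ± 0.10, adjusted p = 9.6e-11). NDUFA5, an accessory subunit of the matrix arm, was at 10.2 and 11.7 FPKM in control and 23.8 and 24.2 FPKM with IWP2 (1.16 ± 0.10, adjusted p = 5.5e-10). NDUFA6, a matrix arm subunit that anchors an acyl carrier protein, was at 37.7 and 43.7 FPKM in control and 90.0 and 84.8 FPKM with IWP2 (1.13 ± 0.11, adjusted p = 1.0e-08). The smallest change among the core genes was that of NDUFS8, from 8.58 and 9.08 to 11.0 and 9.62 FPKM (0.25 ± 0.10, adjusted p = 0.044), and this call was lost when either control replicate 1 or IWP2 replicate 1 of day 11 was left out (log2 fold changes 0.18 and 0.15). Heart markers summed to 744 and 1020 FPKM in these control libraries and 4823 and 4933 FPKM with IWP2.

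The difference between the days in the IWP2 effect was tested as an interaction. It was lower at day 11 than at day 7 for 10 of 37 members and higher for none, where 9.98% of all genes tested were called lower. NDUFA8 had the largest difference, -0.69 ± 0.16 (adjusted p = 0.0027), followed by NDUFS7 at -0.53 ± 0.15 (adjusted p = 0.014) and NDUFB9 at -0.51 ± 0.12 (adjusted p = 0.0029). The count was 3 without control replicate 2 of day 11, and 4 without control replicate 2 of day 7, IWP2 replicate 1 of day 7 or IWP2 replicate 2 of day 11. Without IWP2 replicate 1 of day 11 it was 6. Within the IWP2 cultures, 10 members were lower at day 11 than at day 7 and none was higher, where 15.4% of all genes tested were called lower. That count fell to 1 without IWP2 replicate 2 of day 11 and to 5 without IWP2 replicate 1 of day 7.

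With NaHCO3 added to IWP2, the members were lower than with IWP2 alone at day 7. In cells with both agents, 36 of 37 members were lower and none was higher, where 24.0% of all genes tested were called lower. The median log2 fold change was -0.83, a 1.77-fold fall, and 10 members fell at least 2-fold (8.29% of all genes tested by that rule). All 7 core genes, 8 of 9 matrix arm accessory genes and all membrane arm genes fell, and NDUFA7 was again the member that was not called. NDUFB5 went from 38.2 and 36.4 FPKM with IWP2 to 12.6 and 14.2 FPKM with both agents (-1.53 ± 0.10, adjusted p = 1.6e-12). NDUFC1 went from 32.3 and 33.0 to 11.7 and 12.4 FPKM (-1.50 ± 0.10, adjusted p = 2.8e-14), and NDUFA8 from 68.9 and 70.6 to 24.8 and 28.9 FPKM (-1.44 ± 0.11, adjusted p = 1.5e-11). In each of the 37 members both libraries with NaHCO3 lay below both libraries with IWP2 alone. How many of all genes were separated in this way was not counted.

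The core genes fell by different amounts at day 7. NDUFS7 changed most, from 7.03 and 6.53 to 2.64 and 3.68 FPKM (-1.16 ± 0.11, adjusted p = 9.3e-11). NDUFV1 went from 39.9 and 37.6 to 19.4 and 20.8 FPKM (adjusted p = 8.4e-13). NDUFS8, a carrier of iron-sulphur clusters near the membrane, went from 13.8 and 12.9 to 8.93 and 10.5 FPKM (-0.51 ± 0.10, adjusted p = 5.0e-05). The heart marker sum was 707 and 771 FPKM with both agents. That was above the 492 and 559 FPKM of the control libraries and below the sum with IWP2 alone. The part of this sum in the fall of the members was not tested.

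At day 11, 19 members were lower with NaHCO3 added to IWP2 and 0 higher, with a median log2 fold change of -0.29. Of all genes tested, 23.9% were called lower. No member reached a 2-fold fall. NDUFA8 went from 52.2 and 51.8 to 26.9 and 28.6 FPKM (-0.84 ± 0.11, adjusted p = 3.2e-07), and NDUFB5 from 37.5 and 37.7 to 20.4 and 20.8 FPKM (-0.80 ± 0.10, adjusted p = 1.4e-07). Of the 7 core genes 5 fell, and NDUFS3 (-0.22 ± 0.10, adjusted p = 0.067) and NDUFS8 (-0.07 ± 0.10, adjusted p = 0.60) did not pass the test. NDUFS4, a matrix arm accessory subunit in which mutations cause Leigh syndrome, was at 54.5 and 49.2 FPKM with IWP2 and at 44.5 and 51.5 FPKM with both agents, so its groups overlapped.

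With 2-DG added to IWP2 and NaHCO3 the members were high again. At day 7, 36 of 37 were higher than with IWP2 and NaHCO3 and none was lower, where 25.0% of all genes tested were called higher. The median log2 fold change was 0.89, a 1.86-fold rise, and 13 members rose at least 2-fold (7.10% of all genes tested by that rule). NDUFA8 went from 24.8 and 28.9 to 67.3 and 68.2 FPKM (1.42 ± 0.11, adjusted p = 2.1e-11). NDUFA1, an X-linked membrane arm subunit, went from 60.8 and 65.2 to 144 and 148 FPKM (1.29 ± 0.22, adjusted p = 0.00018), and NDUFA5 from 9.27 and 9.54 to 21.3 and 21.0 FPKM (1.25 ± 0.10, adjusted p = 1.3e-10). All 7 core genes rose, from a log2 fold change of 0.49 for NDUFS8 to 1.07 for NDUFS7. Both libraries with 2-DG lay above both libraries without it in all 37 members, NDUFA7 included, though NDUFA7 was not called. Such separation was not counted over all genes.

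At day 11, 30 members were higher with 2-DG and 0 lower, where 24.9% of all genes tested were called higher, and the median log2 fold change was 0.64. NDUFA8 went from 26.9 and 28.6 to 68.6 and 67.6 FPKM (1.32 ± 0.11, adjusted p = 5.6e-11). NDUFA6 went from 48.1 in each library to 111 and 106 FPKM (1.20 ± 0.11, adjusted p = 1.6e-09). NDUFS6, a zinc-binding subunit of the matrix arm, went from 26.6 and 28.9 to 59.5 and 65.8 FPKM (1.19 ± 0.10, adjusted p = 3.7e-12). The core gene NDUFS1 rose by 1.07 ± 0.07 (adjusted p = 9.2e-15). Heart markers summed to 4820 and 4787 FPKM with 2-DG at day 7 and to 8547 and 7592 FPKM at day 11, against 506 and 525 FPKM with IWP2 and NaHCO3 at day 11. Their part in these rises was not tested.

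**Figure D3:**
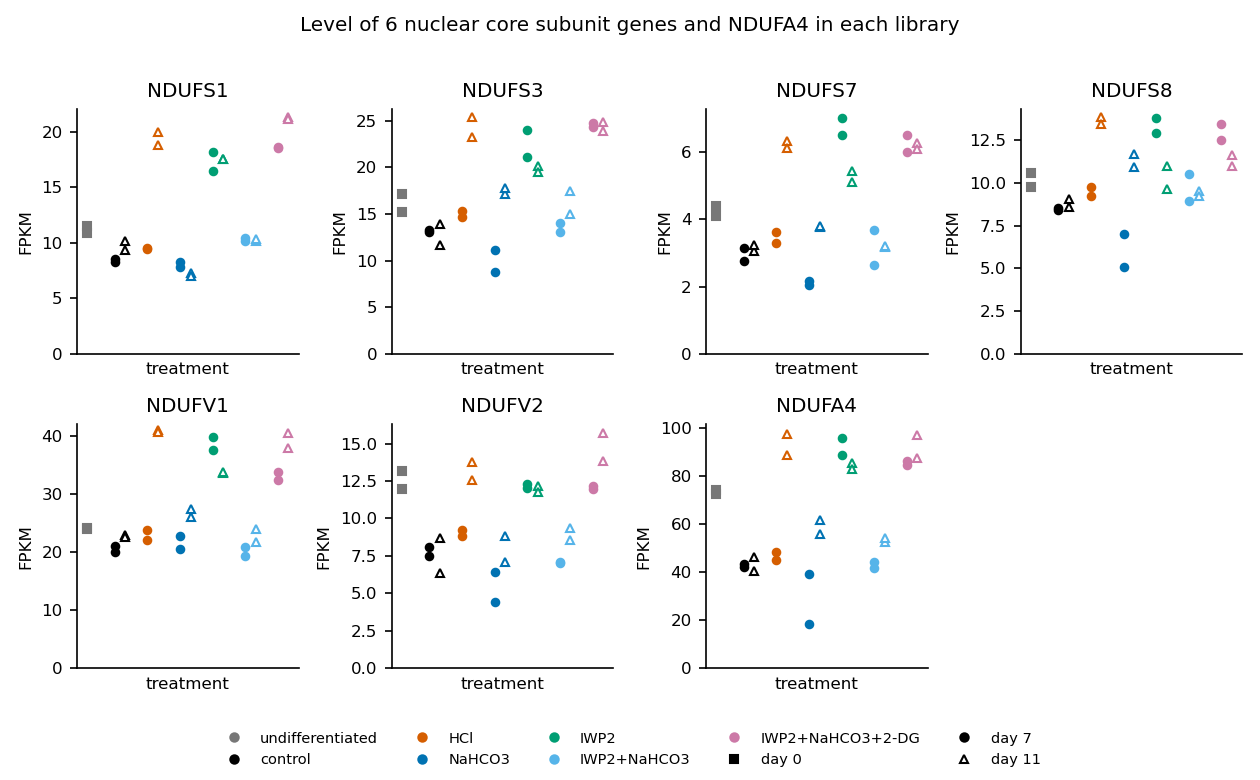
FPKM of 6 nuclear core genes and NDUFA4 in each library of days 0, 7 and 11, by treatment (colours) and day (square, day 0; filled circle, day 7; open triangle, day 11). NDUFS7 lies at 7.03 and 6.53 FPKM with IWP2 at day 7, above the 3.14 and 2.76 FPKM of the control libraries.

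HCl gave a small rise at day 7 and a large one at day 11. At day 7, 12 of 37 members were higher than in control and 0 lower, where 23.1% of all genes tested were called higher, and the median log2 fold change was 0.21. That count was 5 without HCl replicate 2 of day 7 and 7 without control replicate 1 of day 7. NDUFC1 went from 11.8 and 11.6 to 17.5 and 18.5 FPKM (0.67 ± 0.10, adjusted p = 1.2e-06), NDUFA8 from 22.6 and 21.4 to 31.7 and 34.4 FPKM (0.64 ± 0.12, adjusted p = 4.7e-05), and NDUFB5 from 12.8 and 13.5 to 17.98 and 20.02 FPKM (0.58 ± 0.10, adjusted p = 3.5e-05). The core genes NDUFS1, NDUFS7 and NDUFV1 were called, with log2 fold changes of 0.21 to 0.28, and each of these 3 calls was lost without at least 1 library.

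At day 11, 36 of 37 members were higher with HCl than in control and none was lower, where 25.3% of all genes tested were called higher. The median log2 fold change was 0.89, a 1.86-fold rise, and 15 members rose at least 2-fold (8.37% of all genes tested by that rule). NDUFC1 went from 13.5 and 14.3 to 39.0 and 34.3 FPKM (1.48 ± 0.09, adjusted p = 1.6e-14). NDUFB5 went from 15.1 and 17.1 to 41.5 and 38.6 FPKM (1.40 ± 0.10, adjusted p = 5.3e-12), and NDUFA8 from 23.1 and 27.3 to 64.7 and 59.0 FPKM (1.38 ± 0.11, adjusted p = 2.7e-11). The core gene NDUFS1 went from 9.37 and 10.1 to 18.85 and 20.03 FPKM (1.08 ± 0.07, adjusted p = 9.4e-15), and NDUFS8 rose least of the core genes (0.71 ± 0.10, adjusted p = 2.4e-07). NDUFA7 was once more the member without a call, at 1.62 and 1.64 FPKM in control and 1.86 and 1.98 FPKM with HCl.

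The HCl effect was larger at day 11 than at day 7 for 31 of 37 members and smaller for none, tested as an interaction, where 19.4% of all genes tested were called higher. The median difference was 0.77. NDUFB9, a distal membrane arm subunit, had the largest difference, 1.10 ± 0.12 (adjusted p = 1.1e-08), with 24.3 and 25.5 FPKM in control and 22.8 and 27.6 FPKM with HCl at day 7, and 26.7 and 29.8 FPKM in control and 60.0 and 59.4 FPKM with HCl at day 11. For NDUFA5 the difference was 1.04 ± 0.14 (adjusted p = 1.6e-06). Within the HCl cultures, 34 members were higher at day 11 than at day 7 and 0 lower, where 27.8% of all genes tested were called higher. Heart marker sums were 1113 and 1575 FPKM with HCl at day 7 and 7357 and 7367 FPKM at day 11, and their part in the difference was not tested.

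**Figure D4:**
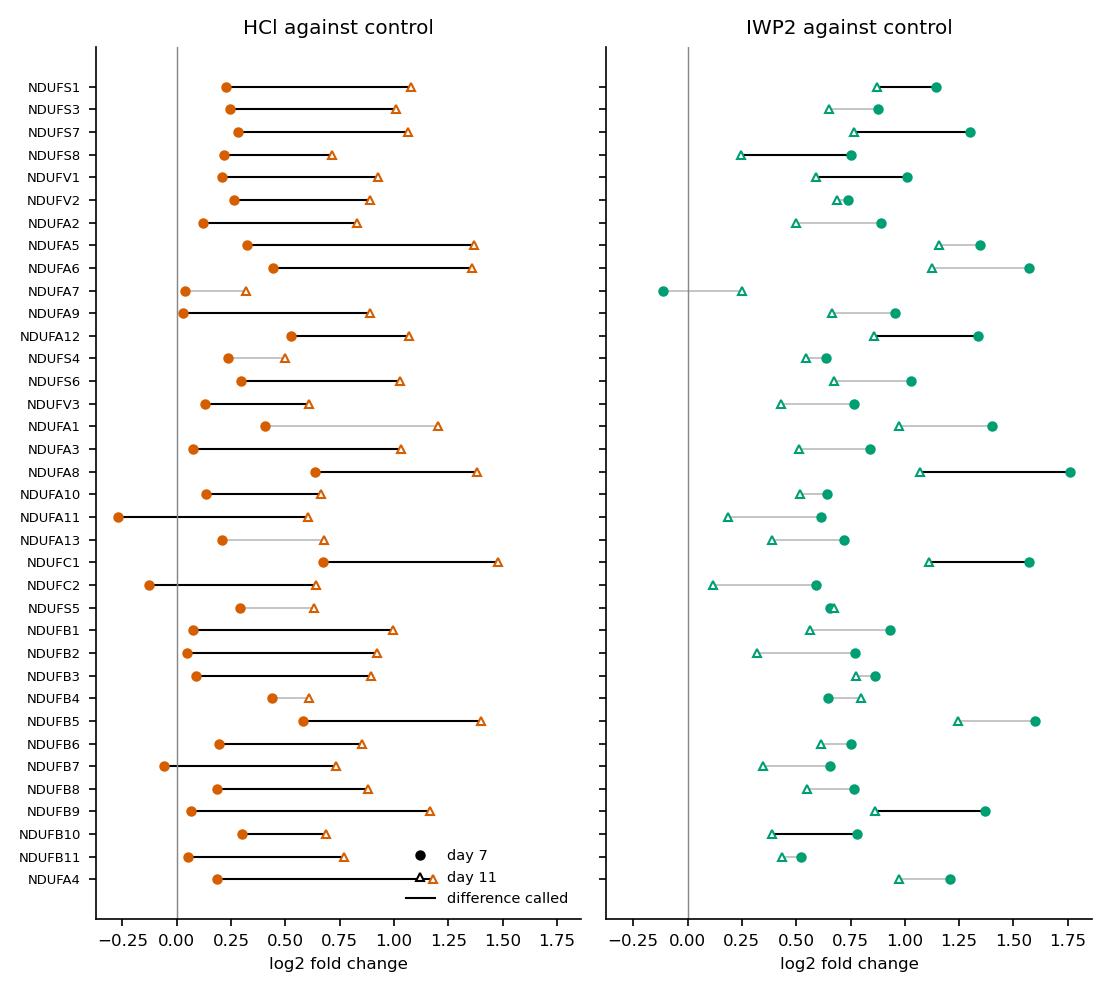
log2 fold change of 36 members against control at day 7 (filled circles) and day 11 (open triangles), for HCl (left) and IWP2 (right), with a black line where the difference between the days was called. Among those drawn, the difference was called for 30 members with HCl, all larger at day 11, and for 9 with IWP2, all smaller.

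Many members were lower with NaHCO3 alone at day 7. The count was 22 lower and 2 higher, where 20% of all genes tested were called lower and 20.3% higher, and the median log2 fold change was -0.46. NDUFS6 fell most, from 31.7 and 28.6 FPKM in control to 9.85 and 14.5 FPKM (-1.18 ± 0.11, adjusted p = 1.9e-10). NDUFA7 went from 2.42 and 2.14 to 1.16 and 0.94 FPKM (-0.99 ± 0.27, adjusted p = 0.0034), and NDUFA3, of the membrane arm, from 10.7 and 10.2 to 3.81 and 6.28 FPKM (-0.92 ± 0.14, adjusted p = 2.4e-06). The core genes NDUFS8, NDUFS7, NDUFV2 and NDUFS3 fell by log2 fold changes of -0.28 to -0.39. NDUFV3 (0.25 ± 0.09, adjusted p = 0.028) and NDUFV1 (0.20 ± 0.07, adjusted p = 0.035) were called higher, though the libraries of NDUFV1 overlapped, and neither was called when libraries were scaled by their totals alone.

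The extent of this fall rested on 1 library. The members summed to 498 FPKM in NaHCO3 replicate 1 and 802 FPKM in replicate 2, and NDUFA4 was at 18.6 and 39.2 FPKM in them against 42.1 and 43.2 FPKM in control (-0.44 ± 0.21, adjusted p = 0.12). Without NaHCO3 replicate 1, 10 members were lower and 2 higher with a median of -0.14. Without NaHCO3 replicate 2, 30 were lower and 1 higher with a median of -0.75. Without control replicate 2 of day 7, 15 were lower and 0 higher. NDUFS6 lay below both control libraries in each of the NaHCO3 libraries. Heart marker sums in these NaHCO3 libraries were 170 and 135 FPKM against 492 and 559 FPKM in control, fibroblast and matrix sums 6271 and 5723 FPKM, and endothelial sums (8 genes such as CDH5) 282 and 229 FPKM against 143 and 141 FPKM. Their part in the fall was not tested.

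At day 11 most members were higher with NaHCO3 than in control. The count was 27 higher and 1 lower, where 26.0% of all genes tested were called higher and 26.5% lower, and the median log2 fold change was 0.48. NDUFS4 rose most, from 33.4 and 38.9 to 76.1 and 69.5 FPKM (1.21 ± 0.15, adjusted p = 2.2e-06). NDUFA7 went from 1.62 and 1.64 to 3.20 and 2.64 FPKM (1.04 ± 0.24, adjusted p = 0.00052), and NDUFA1 from 64.9 and 75.8 to 118 and 116 FPKM (0.93 ± 0.22, adjusted p = 0.0022). Scaling by library totals alone moved the median of all genes to -0.22 and gave 18 members higher and 2 lower with a median of 0.28, and limma on log2(FPKM + 1) gave 14 higher and 2 lower. NDUFS1 was the member that fell, from 9.37 and 10.1 to 7.25 and 7.02 FPKM (-0.25 ± 0.07, adjusted p = 0.0025), a call that was lost without control replicate 2 of day 11 (-0.17). The difference between the days in the NaHCO3 effect was not tested.

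The core genes NDUFS3, NDUFS7, NDUFS8 and NDUFV1 rose with NaHCO3 at day 11. NDUFS3 went from 11.7 and 13.9 to 17.1 and 17.8 FPKM (0.65 ± 0.10, adjusted p = 3.9e-06) and NDUFS8 from 8.58 and 9.08 to 10.9 and 11.7 FPKM (0.56 ± 0.10, adjusted p = 1.8e-05). NDUFV2 was not called (0.27 ± 0.14, adjusted p = 0.11).

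The mitochondrially encoded genes had the opposite sign to the nuclear members in this comparison. The MT-ND genes code for the proton-pumping core of the membrane arm. With NaHCO3 at day 11, 6 of 7 MT-ND genes fell and 0 rose, where 26.5% of all genes tested were called lower. Their median log2 fold change was -0.70, and their sum went from 9731 and 9831 to 5524 and 5110 FPKM. With NaHCO3 at day 7, 7 of 7 fell (median -0.97), where 20% of all genes tested were called lower. The NaHCO3 libraries of that day stood far apart over all genes, with a chi-square per gene of 21.9. In the other within-day comparisons of days 7 and 11 the MT-ND median had the sign of the nuclear median: 0.85 for IWP2 at day 7, -0.77 for NaHCO3 added to IWP2 at day 7, 0.91 for 2-DG at day 7 and 1.51 for HCl at day 11, each with 7 of 7 genes called in that direction. Of all genes tested, 23.3%, 24.0%, 25.0% and 25.3% were called in these directions, in the same order. With HCl at day 11 the MT-ND sum reached 26938 and 26479 FPKM, against 9731 and 9831 FPKM in control. Heart marker sums with NaHCO3 at day 11 were 137 and 140 FPKM and the fibroblast and matrix sums 6845 and 7041 FPKM, against 3249 and 3235 FPKM in control, and the part of these markers was not tested.

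**Figure D5:**
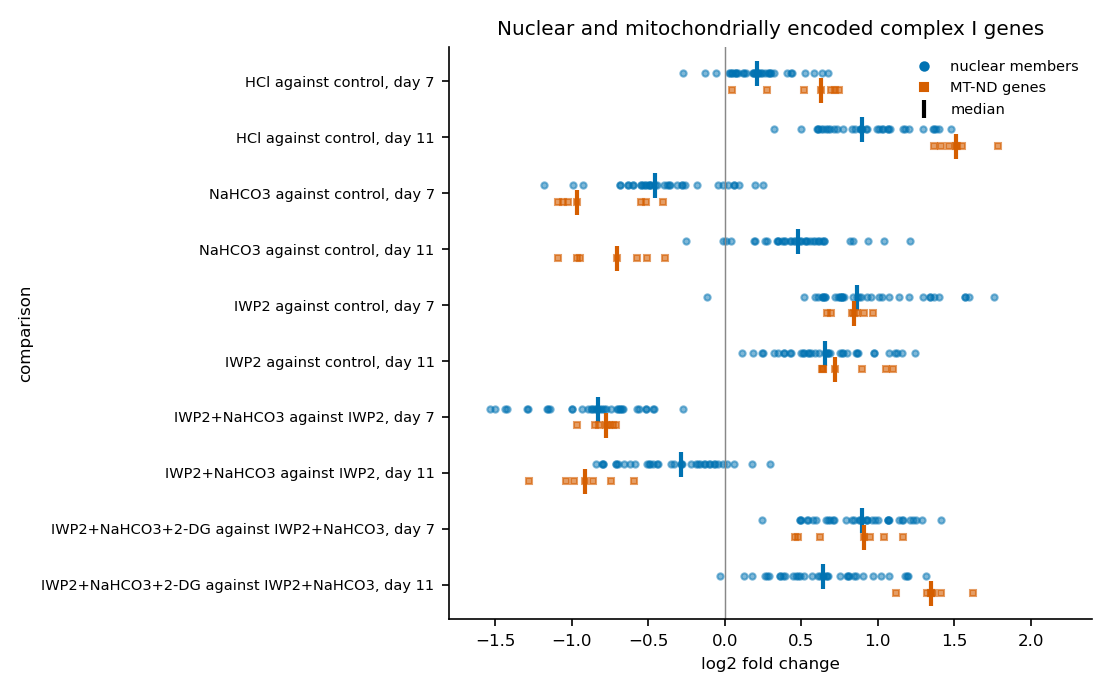
log2 fold changes of the 37 nuclear members (circles) and the 7 MT-ND genes (squares) in the within-day comparisons of days 7 and 11, with bars at the medians. With NaHCO3 against control at day 11 the nuclear median is 0.48 and the MT-ND median -0.70.

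Days 3 and 5 gave few calls. With HCl 1 member was called lower at day 3, NDUFA5 (-0.55), where 30.0% of all genes tested were called in either direction, and 0 at day 5, where 41.8% were. With NaHCO3 1 member was called higher at day 3, NDUFA6 (0.69), from 57.5 and 53.9 to 88.0 and 84.8 FPKM, where 12.3% of all genes were called, and 0 at day 5, where 15.8% were. IWP2 changed 0 members at day 3 and 0 at day 5, where 1.17% and 15.3% of all genes were called. With NaHCO3 added to IWP2 1 member was called lower at day 3, NDUFA10 (-0.37), where 8.58% of all genes were called, and 0 at day 5, where 13.0% were. The calls of NDUFA6 and NDUFA10 were lost when any 1 of the 4 libraries compared was left out, and that of NDUFA5 without control replicate 2 or either HCl library of day 3. With only the libraries of day 3 in the fit, none of these 3 calls was made, and with no filter on low values that of NDUFA10 was lost. None of the 37 members had an unadjusted p under 0.05 in the 5 comparisons with a count of 0. DESeq2 also called 0 in each of them, and limma called 1 for HCl at day 5 and 0 in the others.

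These low counts depended on which libraries shared the fit. Without both libraries of day 3 that received 2-DG, IWP2 gave 11 members higher at day 5, HCl 12 higher and 3 lower at day 5, and NaHCO3 6 higher at day 5. At day 3 the counts were then 4 higher and 5 lower with HCl, 2 higher and 2 lower with NaHCO3, and 2 higher with IWP2. For NaHCO3 added to IWP2 they were 8 lower at day 3 and 3 lower at day 5.

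The day 3 libraries with IWP2, NaHCO3 and 2-DG summed to 2105 and 1113 FPKM over the members, against 1293 and 1297 FPKM with IWP2 and NaHCO3. Of the members 8 were called higher and 0 lower, where 9.49% of all genes tested were called higher. The libraries overlapped in 36 of 37 members, and such overlap was not counted over all genes. NDUFC2, a membrane arm subunit, was at 8.35 and 3.59 FPKM with 2-DG and 3.87 and 2.98 FPKM without it (0.97 ± 0.30, adjusted p = 0.031). NDUFB2, of the distal membrane arm, was at 22.5 and 11.1 FPKM against 10.6 and 11.3 FPKM (0.79 ± 0.22, adjusted p = 0.020), and NDUFA13, also known as GRIM-19, at 17.3 and 7.92 FPKM against 7.89 and 9.24 FPKM (0.73 ± 0.24, adjusted p = 0.044). Without 2-DG replicate 2 the count was 36 higher, without 2-DG replicate 1 it was 7 lower, and without either library of IWP2 and NaHCO3 it was 0. The direction at day 3 thus turned with 1 library.

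At day 5, 5 members were higher with 2-DG and 0 lower, where 20% of all genes tested were called higher. Both libraries with 2-DG lay above both without it in 14 members and below both in 14, and they overlapped in 9. The matching split over all genes was not counted. NDUFB2 went from 12.4 and 11.6 to 17.0 and 16.7 FPKM (0.66 ± 0.22, adjusted p = 0.020), and NDUFA9, near the ubiquinone site, from 4.89 and 5.15 to 6.14 and 6.99 FPKM (0.56 ± 0.15, adjusted p = 0.0051). The count was 0 or 1 without any 1 of these 4 libraries, and 1 higher and 3 lower with scaling by library totals alone or by limma. It was 15 higher and 2 lower with only the libraries of day 5 in the fit, and 15 higher and 5 lower without the 2-DG libraries of day 3. In control cells 3 members were lower at day 5 than at day 3 and 0 higher, where 18.1% of all genes tested were called lower, among them NDUFS5 (-0.54 ± 0.18, adjusted p = 0.022) and NDUFS1 (-0.35 ± 0.10, adjusted p = 0.0090). That count was 0 or 1 when a control library was left out, and 16 lower and 1 higher without the 2-DG libraries of day 3. The difference between days 3 and 5 in the effect of HCl or IWP2 was called for 0 members, where 27.8% and 7.21% of all genes were called. At an unadjusted p under 0.05 there was 1 member for HCl and 0 for IWP2, and DESeq2 called 1 and 0 and limma 0 and 0.

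Other genes of the pathway were read from lists. Of 18 assembly factors, which build the complex and are not part of it, 13 rose and 0 fell with IWP2 at day 7 (23.3% of all genes tested were called higher), with NDUFAF4 at 1.68 ± 0.14 (adjusted p = 5.2e-11) and NDUFAF5 at 1.24 ± 0.13 (adjusted p = 8.1e-10). With HCl at day 11, 12 rose and 0 fell (25.3% of all genes were called higher), led by the same genes. With NaHCO3 at day 11, 8 rose and 3 fell, where 26.0% of all genes were called higher and 26.5% lower. Among the 8 were TMEM261 (0.79 ± 0.10, adjusted p = 3.5e-07) and NDUFAF2 (0.77 ± 0.14, adjusted p = 2.0e-05). The 4 genes of complex II, the succinate dehydrogenase, have 5 rows, of which a second row named SDHD did not pass the filter. The other 4 rows rose with IWP2 at day 7, with SDHA going from 6.56 and 6.93 to 21.4 and 19.7 FPKM (1.70 ± 0.09, adjusted p = 1.0e-16).

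Among 12 regulators of mitochondrial genes, 6 rose and 1 fell with IWP2 at day 7, where 23.3% of all genes tested were called higher. The 2 named here are the called ones of largest change. PPARGC1A, a coactivator of mitochondrial biogenesis, was at 1.30 and 1.39 FPKM in control and 19.8 and 18.1 FPKM with IWP2 (3.90 ± 0.32, adjusted p = 1.3e-07). ESRRG, a nuclear receptor of the ERR family, was at 1.29 and 1.13 FPKM in control and 10.00 and 9.48 FPKM with IWP2 (3.11 ± 0.18, adjusted p = 1.5e-10). Both libraries with IWP2 lay above both control libraries for each gene. With NaHCO3 at day 11, 3 of the 12 regulators rose and 4 fell, where 26.0% of all genes were called higher and 26.5% lower. PPARGC1A was then at 2.71 and 3.35 FPKM in control and 0.09 and 0.08 FPKM with NaHCO3 (-4.88 ± 0.55, adjusted p = 3.6e-06). ESRRG was at 1.45 and 1.75 FPKM in control and 0.33 and 0.32 FPKM with NaHCO3 (-2.10 ± 0.26, adjusted p = 2.2e-06). The part of the regulators in the results on the members was not tested in any comparison.

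The members varied together over the groups of days 0, 7 and 11. The correlation of a member's group means with the median of the other members, over 13 groups, had a median of 0.93, and 33 of 37 members were above 0.8. The lowest values were those of NDUFA7 at 0.41 and NDUFS4 at 0.68, and the highest that of NDUFS3 at 0.99. This is a description, since the groups share libraries, scaling and controls. Matching correlations over all genes were not computed. Of the members 32 had their lowest mean with NaHCO3 at day 7, and 14 had their highest with HCl at day 11. NDUFA7 and NDUFS4 were highest with NaHCO3 at day 11. The libraries of NaHCO3 at day 7 stood far apart over the members, with a median absolute log2 ratio of 0.54. These lowest means, and ratios to them, carry that limit. The highest group mean was 2.92 times the lowest for the median member. Over the 12 groups of days 3 and 5 the median correlation was 0.63, and 11 of 37 members were above 0.8. The highest mean was 1.69 times the lowest for the median member. In these groups 15 members had their highest mean with IWP2, NaHCO3 and 2-DG at day 3. That pair of libraries had a median absolute log2 ratio of 0.91.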

How the data were processed

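RNA from 50 libraries of H1 cells was sequenced. The authors deposited read counts per gene and FPKM values in 2 tables, for days 3 and 5 and for days 0, 7 and 11. Per the submitters' processing notes the tools named are cutadapt 1.9.1, HISAT2 2.0.1 and HTSeq 0.6.1, with the build GRCh37. Strand setting of the counting is not given in the sources used here.

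Counts were tested with edgeR 4.0.16 in R 4.3.3 (TMM scaling, robust quasi-likelihood fit, with every group of a table in the same model). The filter was 1 FPKM or more in 2 or more libraries, which kept 17286 and 18451 of 57905 genes. P-values were adjusted by Benjamini-Hochberg over all genes of a comparison, and a call is an adjusted p under 0.05 with no minimum fold unless 2-fold is stated. Deposited FPKM served for levels and sums. Alternatives used DESeq2 1.42.0, limma 3.58.1 on log2(FPKM + 1), other scalings and filters, and left out libraries. The fit was tested on simulated data. The members and lists were chosen with earlier results of these data known. Named genes are the core genes, NDUFA4, and in each comparison with at least 4 calls the 3 largest rises and falls. One core gene is not reported here by name and enters counts, medians and sums only. In other lists they are the 2 called genes of largest change. A gene was also named where a count of 5 or fewer fell outside this rule, or to show a pattern (NDUFA7, NDUFS4, SDHA, NDUFB9), chosen after its values were seen.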

Additional observations from a re-analysis of the deposited data

Results flagged for a closer look

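The HCl effect differed between day 11 and day 7, by the interaction term of edgeR's fit, in 31 members, among them NDUFB9 (1.10) and NDUFA5 (1.04) as differences in log2 fold change.

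The IWP2 effect differed between the same days in 10 members, by the same test, led by NDUFA8 (-0.69), NDUFS7 (-0.53) and NDUFB9 (-0.51). The number of IWP2 calls was 3 without control replicate 2 of day 11.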

How the results depend on the processing

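The counts for IWP2, NaHCO3 added to IWP2 and 2-DG at day 7, and for HCl at day 11, stayed within 1.5 times their value under every alternative run except the 2-fold minimum. The cause of the changes below was not tested, beyond what leaving libraries out or a stricter rule does by construction.

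With at least 2-fold required, the counts of members were 15 for HCl at day 11 and 0 at days 3 and 7. They were 0, 1 and 2 for NaHCO3 at days 3, 7 and 11, and 14 and 5 for IWP2 at days 7 and 11. For NaHCO3 added to IWP2 they were 0, 10 and 0 at days 3, 7 and 11, and for 2-DG 0, 0, 13 and 6 at days 3, 5, 7 and 11. Over time they were 0 for control day 5 against day 3, 3 for control day 7 against day 0, 0 for control day 11 against day 7, 11 for HCl and 0 for IWP2. The differences between days 7 and 11 gave 3 for HCl and 0 for IWP2.

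With only the libraries of the days compared, HCl gave 0 at day 3 and 16 at day 5, NaHCO3 0 and 5, IWP2 11 at day 5, NaHCO3 added to IWP2 0 and 2, and 2-DG 0 and 17. Without the 2-DG libraries of day 3, HCl gave 9 and 15 at days 3 and 5, NaHCO3 4 and 6, IWP2 2 and 11, NaHCO3 added to IWP2 8 and 3, 2-DG 20 at day 5, control day 5 against day 3 17, and the differences between days 3 and 5 gave 4 for HCl and 1 for IWP2.

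With library totals only, HCl gave 2 and 1 at days 3 and 5, 2-DG 1 and 4 (1 higher, 3 lower at day 5, so reversed) and the IWP2 difference between days 7 and 11 gave 6. That scaling moved the median of all genes by over 0.1 in 6 comparisons, to -0.22 at most. With limma, HCl gave 2, 1 and 6 at days 3, 5 and 7, NaHCO3 16 at day 11, 2-DG 0 and 4 at days 3 and 5 (1 higher and 3 lower at day 5), control day 11 against day 7 3, and the IWP2 difference 4. With no filter, HCl gave 3 at day 3 (2 higher and 1 lower) and 6 at day 5, NaHCO3 added to IWP2 0 at day 3, 2-DG 19 and 8 at days 3 and 5, control day 5 against day 3 6, and IWP2 day 11 against day 7 18. The 5 FPKM filter gave 1 for HCl at day 5 and 5 for 2-DG at day 3, and the DESeq2 test 1 for the HCl difference between days 3 and 5.

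Leaving out 1 library at a time gave 5 to 11 for HCl at day 7, 12 to 31 for NaHCO3 at day 7, 1 to 8 for IWP2 day 11 against day 7, 1 to 7 for control day 11 against day 7, 3 to 12 for the IWP2 difference, 0 to 1 for HCl at day 3, 0 for NaHCO3 at day 3, 0 for NaHCO3 added to IWP2 at day 3, 0 to 1 for control day 5 against day 3, 0 to 36 for 2-DG at day 3 and 0 to 1 for 2-DG at day 5. For 2-DG at day 3, NDUFS7 ranged from -0.023 to 1.06 and NDUFA13 from -0.057 to 1.24. A group left with 1 library is assumed to vary like the others.

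Libraries with the same replicate number showed little shared deviation. Correlations were -0.060 to 0.065 at days 0, 7 and 11 and -0.11 to 0.29 at days 3 and 5, with medians of -0.0053 and 0.0063. The highest was between IWP2 at day 5 and IWP2+NaHCO3+2-DG at day 3. These values gave no sign of pairing by number, but a shared culture with little effect would look the same. With the replicate block the count was 36 for IWP2 at day 7 and 24 for NaHCO3 at day 7, as without it, and 14 against 12 for HCl at day 7. No count moved by over 1.5 times under the block.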
